A study of Mus musculus with 8 samples.

Results

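Mitochondria fuse, divide and are removed by autophagy, and 10 genes of these processes are described here in group 2 innate lymphoid cells (ILC2s) of mouse visceral fat. They are the fusion genes Mfn1, Mfn2 and Opa1, the fission genes Dnm1l, Fis1 and Mff, and the mitophagy genes Pink1, Bnip3, Bnip3l and Fundc1. They were taken by gene symbol from a table of 39527 genes, and all 10 were found with values above 0 in every library. ILC2s lack the rearranged antigen receptors of T and B cells, live in tissues and secrete type 2 cytokines. They were sorted from the epididymal visceral fat of male wild-type C57BL/6 mice, with 4 libraries (H1 to H4) from mice on a high-fat diet and 4 (N1 to N4) from mice on a normal diet. All mice were 14 weeks old, and the diets had started at 6 weeks of age and lasted 8 weeks. The title of the series names LKB1, the kinase that activates AMPK, and mitochondria as its subjects.

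Fusion joins the outer membranes of neighbouring mitochondria through the mitofusins MFN1 and MFN2 and their inner membranes through OPA1. Fission is carried out by the dynamin-like GTPase DRP1, the product of Dnm1l, which is brought from the cytosol to the outer membrane mainly by the adaptor MFF and is also linked to FIS1. In mitophagy the kinase PINK1 gathers on damaged mitochondria and recruits the ubiquitin ligase Parkin, while BNIP3, BNIP3L (also called NIX) and FUNDC1 sit in the outer membrane and bind LC3 and GABARAP proteins of the autophagosome directly.

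The values are FPKM as deposited, that is fragments per kilobase of gene, scaled to the library size. Genes entered the test if 4 or more libraries reached 1 FPKM and no value was below 0, which held for 11483 genes and for all 10 described here. The test was limma on log2(FPKM + 1), two-sided, with Benjamini-Hochberg adjustment over all tested genes at 0.05. A fold change is the high-fat mean minus the normal-diet mean on that scale, where the added 1 makes changes of weakly expressed genes look smaller. The labels do not tell separate animals from pools, so each p-value reflects library-to-library spread, part of which may be technical.

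The libraries held 9005363 to 15752815 reads as recovered from the deposited values, with the fewest in H2. The summed level of 15 ILC2 markers, all tested, was 8550 to 9960 FPKM in H1 to H4, against 10777 to 13027 FPKM in N1 to N4. Of these markers 12 had a log2 fold change below 0, while Il7r, Areg and Thy1 stood at 0.31, 0.33 and 0.09. The sum also holds the cytokine Il5, which averaged 189 FPKM on the high-fat diet and 780 FPKM on the normal diet. Markers of other cells were also present. The 12 T cell markers summed to 852 to 1632 FPKM in H1 to H4, against 796 to 1068 FPKM in N1 to N4. For Cd3e, a defining chain of the T cell receptor complex, the range was 7.33 to 15.1 FPKM in the high-fat libraries, against 2.49 to 11.6 FPKM in the others. The 8 mast cell markers summed to 1945 to 8479 FPKM in H1 to H4, lowest in H2, against 4229 to 8782 FPKM in N1 to N4. The 12 endothelial markers summed to 31.5 to 152 FPKM in H1 to H4, again lowest in H2, against 17.0 to 23.0 FPKM in N1 to N4. Much of this was Fabp4, with 104, 9.68, 62.5 and 68.9 FPKM in H1 to H4, against 0.788 to 1.81 FPKM in N1 to N4. Of the 4 tested endothelial markers 2 passed as higher on the high-fat diet, beside 0.975% of all tested genes, and none had a fold change below 0. They were Fabp4 (limma adjusted p = 0.0270) and Esam (adjusted p = 0.0111), the latter with 1.86 to 7.82 FPKM in H1 to H4, against 0.266 to 1.25 FPKM in N1 to N4. Cdh5 stayed under 1 FPKM in every library, with 0.333 to 0.416 FPKM in H1 to H4, against 0.0241 to 0.315 FPKM in N1 to N4. Fewer cells of a type, less RNA per cell and a change of the marker genes themselves cannot be told apart in such bulk samples. The libraries hold the RNA of all sorted cells, and the part of the other cells in the values below was not tested.

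None of the 10 genes passed the test between the diets, with adjusted p from 0.132 for Pink1 to 0.967 for Mfn2. Over all tested genes 328 passed, which is 2.86%, with 112 higher (0.975%) and 216 lower (1.88%) on the high-fat diet. Under quantile normalization the split was 226 higher and 204 lower. At an unadjusted p under 0.05 there were 2 of the 10, Pink1 and Mfn1, both lower on the high-fat diet, against 18.1% of all tested genes in either direction and 11% with lower values on the high-fat diet. In the deposited values, high-fat and normal-diet libraries were fully apart for 2 of the 10, Mfn1 and Opa1, both lower on the high-fat diet. For Opa1 the diets overlap once the recycled factor is divided out. Among all tested genes 11.1% were fully apart, 4.31% higher and 6.76% lower on the high-fat diet. With 10 genes, neither count stands out from the background. A fold change below 0 was found in 6 of the 10 genes, and in 52.1% of all tested genes, and the median was -0.07 for the 10 genes and -0.02 for all tested genes.

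By level the genes spanned a wide range. Fis1 was the highest, with a mean of 137 FPKM over the 8 libraries, at the 93.9th percentile of the tested genes. Bnip3l followed at 81.6 FPKM, and the libraries of neither overlapped those of the gene next in order. Below them came Mff at 47.0, Pink1 at 35.3, Mfn2 at 29.8, Opa1 at 19.3, Dnm1l at 16.3, Fundc1 at 15.1, Bnip3 at 11.8 and Mfn1 at 11.2 FPKM. From Mff downwards the range of each gene over the 8 libraries overlapped that of the next one. Within libraries Mfn2 was above Opa1 in 8 of 8, while the other neighbours from Mff downwards kept their order in 5 to 7 of 8. The order also rests on the gene lengths that the values imply. For Mff this was 1715 bases, against 9757 bases of annotated exons in GENCODE M21. With the annotated lengths in place of the implied ones, Mff would stand at 8.25 FPKM, Fis1 at 60.9 FPKM and Bnip3l at 48.5 FPKM, so that the distance between the highest genes depends on length too. No such value is given for Mfn2, whose recovered counts were all even, which leaves its implied length uncertain. The ratio of a gene's FPKM between the diets does not depend on its length, although the added 1 makes the fold change depend on it slightly.

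**Figure D1:**
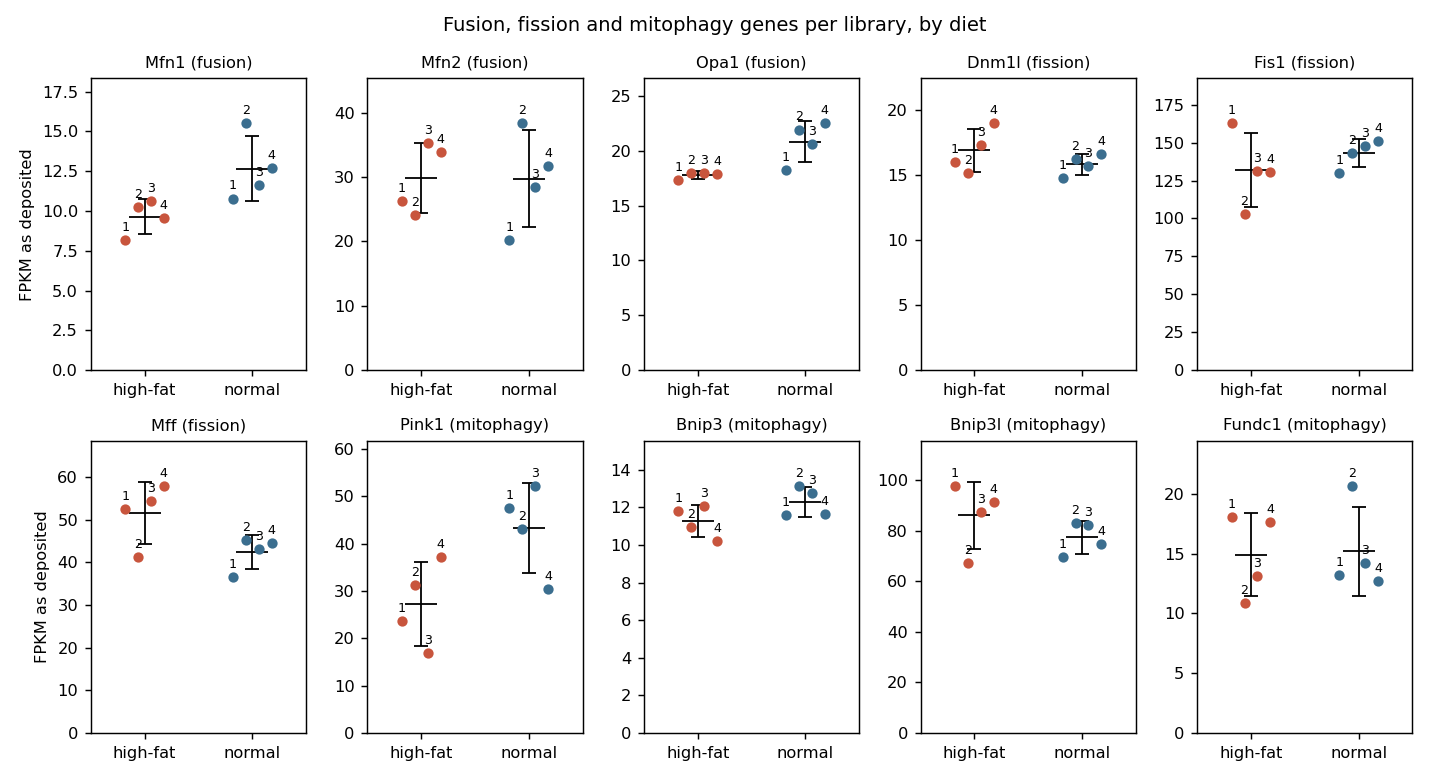
FPKM of the 10 genes in each library, as dots numbered by library, with the high-fat diet in red and the normal diet in blue; the black dash and bars are the mean and SD of 4 libraries, and each panel has its own axis from 0. The values are as deposited. The dots of the diets are apart for Mfn1 and Opa1 and overlap for the other 8 genes. With the recycled factor divided out, those of Opa1 overlap too.

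To show the regulatory sequence beside the levels, the bases just before the RefSeq start of 4 genes are shown. They are Mfn1 and Opa1, whose deposited values did not overlap between the diets, Pink1, which had the largest difference, and Bnip3, a textbook target of the hypoxia factor HIF-1. Each stretch covers 120 bases up to the start, written 5′ to 3′ on the gene's strand, from RefSeq promoters of GRCm38.p6, the build also called mm10. Capitals mark matches, on either strand, to a set of motifs: ACGTG (HIF-1), CACGTG (the E-box core bound by TFEB), TGACGTCA (CREB), TGTTTAC (FOXO), CGCATGCG (the centre of the NRF1 motif), CCGGAAG (ETS factors such as GABPA), CCAAT (NF-Y) and GGGCGG (SP1).
Mfn1 (chr3:32529362-32529481, + strand): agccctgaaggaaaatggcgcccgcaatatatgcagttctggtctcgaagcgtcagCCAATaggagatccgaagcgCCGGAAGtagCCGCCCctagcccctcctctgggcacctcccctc
Opa1 (chr16:29579214-29579333, + strand): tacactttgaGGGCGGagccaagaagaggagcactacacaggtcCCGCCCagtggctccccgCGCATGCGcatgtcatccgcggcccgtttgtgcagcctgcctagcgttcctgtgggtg
Pink1 (chr4:138326297-138326416, - strand): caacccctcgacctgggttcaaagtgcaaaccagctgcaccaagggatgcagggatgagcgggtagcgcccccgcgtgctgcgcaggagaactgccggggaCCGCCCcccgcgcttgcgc
Bnip3 (chr7:138909507-138909626, - strand): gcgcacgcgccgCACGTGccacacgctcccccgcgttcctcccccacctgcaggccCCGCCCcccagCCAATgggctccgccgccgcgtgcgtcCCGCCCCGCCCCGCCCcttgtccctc
In the Mfn1 stretch the CCAAT box, the ETS motif and the GC box follow each other closely. The Opa1 stretch holds the NRF1 letters, a palindrome, and the Bnip3 stretch holds CACGTG, which contains the HIF-1 core on both strands. Over whole windows of 250 bases before to 50 after a start, the NRF1 letters were in 1 of 9 genes with an entry (Opa1) and in 2.07% of all 27025 genes, counting a gene if any of its windows held them. ACGTG was in 2 of 9 (Bnip3 and Mfn2) and in 21.8% of all genes, CACGTG in 1 of 9 (Bnip3) and in 8.09%, and CCGGAAG in 3 of 9 (Dnm1l, Fis1 and Mfn1) and in 9.93%. CCAAT was in 6 of 9 against 41.1%, and GGGCGG in 8 of 9 against 38.2%. The 14 windows of the 9 genes held 49% to 71.7% G and C, against a median of 52.7% over all windows. The shares over all genes also include genes not tested here. TGACGTCA and TGTTTAC were in 0 of 9, against 2.03% and 4.05% of all genes. A match is a string of letters and not a shown binding site.

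Among the fusion genes the deposited values of Mfn1 and Opa1 were lower in every high-fat library than in any normal-diet library, and those of Mfn2 were not. With the recycled factor divided out this holds for Mfn1 but not for Opa1. Mfn1 (ENSMUSG00000027668, chromosome 3, 32529465 to 32579239), a mitofusin that tethers outer membranes, had 8.18, 10.2, 10.6 and 9.55 FPKM in H1 to H4, against 10.8, 15.5, 11.7 and 12.7 FPKM in N1 to N4. The gap between the diets was narrow in the deposited values, with H3 just under N1, and N2 stood highest. The means were 9.65 ± 1.08 FPKM on the high-fat diet and 12.7 ± 2.07 FPKM on the normal diet (SD, n = 4 each). On the log2 scale Mfn1 differed by -0.35 (standard error 0.16, 95% interval -0.69 to -0.02), and it did not pass the limma test (adjusted p = 0.244). Nor did Mfn1 pass under the 20 other settings. There its limma adjusted p was 0.061 with limma-voom on recovered reads, 0.076 with the recycled factor divided out and up to 0.473 in the rest.

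Opa1 (ENSMUSG00000038084, chromosome 16, 29579334 to 29654884), the inner-membrane GTPase that also shapes cristae, had 17.3, 17.9, 17.99 and 17.9 FPKM in H1 to H4, against 18.3, 21.9, 20.6 and 22.5 FPKM in N1 to N4. The high-fat libraries lay close together, with a coefficient of variation of 1.86%, against 9.07% on the normal diet, and N1 stood just above them. With 17.8 ± 0.33 FPKM on the high-fat diet and 20.8 ± 1.89 FPKM on the normal diet (SD, n = 4 each), Opa1 differed by -0.21 on the log2 scale (standard error 0.14, 95% interval -0.50 to 0.08, limma adjusted p = 0.440). Between 455 and 921 reads stood behind each value of Opa1, and between 280 and 464 behind each value of Mfn1. For the lowest of these counts, counting error alone gives a coefficient of variation of 4.69% for Opa1 and 5.98% for Mfn1, and it gives more than the spread seen among the high-fat values of Opa1.

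Mfn2 (ENSMUSG00000029020, chromosome 4, 147873599 to 147904704), the mitofusin that also links mitochondria to the endoplasmic reticulum, had 26.3, 24.1, 35.2 and 33.8 FPKM in H1 to H4, against 20.3, 38.4, 28.5 and 31.7 FPKM in N1 to N4. Both the lowest and the highest library were on the normal diet, so that the high-fat values lay inside the range of the others. The difference was 0.02 on the log2 scale, with a 95% interval of -0.39 to 0.44 (limma adjusted p = 0.967), which leaves room for a change of the size of that of Mfn1 in either direction.

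The mitofusins were set against each other within libraries, a comparison of paralogs chosen after their values were seen. The difference Mfn1 minus Mfn2, on the log2(FPKM + 1) scale, was -1.57, -1.16, -1.64 and -1.72 in H1 to H4, against -0.85, -1.25, -1.22 and -1.25 in N1 to N4. It averaged -1.52 ± 0.25 on the high-fat diet and -1.14 ± 0.20 on the normal diet (SD, n = 4 each). H2 lay among the normal-diet libraries, and the shift of -0.38 did not pass a two-sided exact permutation test (p = 0.114, the same after adjustment over the 2 paralog pairs tested), where the smallest p that the design allows is 0.0286.

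The fission genes showed no common direction. Mff (ENSMUSG00000026150, chromosome 1, 82724890 to 82752394), the outer-membrane adaptor for DRP1, had 52.5, 41.3, 54.5 and 58.0 FPKM in H1 to H4, against 36.5, 45.3, 43.1 and 44.4 FPKM in N1 to N4. H1, H3 and H4 were above every normal-diet library and H2 was below all of those but N1. At 51.6 ± 7.18 FPKM on the high-fat diet and 42.3 ± 3.998 FPKM on the normal diet (SD, n = 4 each), Mff differed by 0.27 on the log2 scale (standard error 0.15, 95% interval -0.05 to 0.59, limma adjusted p = 0.362). Without H2 it was 0.37 (adjusted p = 0.165).

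Dnm1l (ENSMUSG00000022789, chromosome 16, 16312230 to 16358959), which encodes the fission GTPase itself, had 16.01, 15.2, 17.3 and 18.99 FPKM in H1 to H4, against 14.7, 16.2, 15.7 and 16.6 FPKM in N1 to N4. H3 and H4 were above every normal-diet library and H1 and H2 were among them. The difference of 0.09 on the log2 scale had a 95% interval of -0.21 to 0.38 (limma adjusted p = 0.809). It came to 0.00 once the recycled factor was divided out.

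Fis1 (ENSMUSG00000019054, chromosome 5, 136953275 to 136966234), a small tail-anchored outer-membrane protein, had 163, 103, 131 and 130 FPKM in H1 to H4, against 130, 143, 148 and 151 FPKM in N1 to N4. H1 was the highest and H2 the lowest of all 8 libraries, and H3 and H4 stood beside the lowest normal-diet library. The log2 fold change was -0.13 (95% interval -0.46 to 0.20, limma adjusted p = 0.718), and it was -0.02 without H2 and -0.24 without H1. Of the fission genes 1 thus had a lower mean and 2 a higher mean on the high-fat diet, and none passed.

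As a description of the balance of both groups, the mean log2(FPKM + 1) of the fusion genes minus that of the fission genes was -1.67, -1.24, -1.36 and -1.49 in H1 to H4, against -1.33, -0.98, -1.26 and -1.17 in N1 to N4. The averages were -1.44 ± 0.19 on the high-fat diet and -1.19 ± 0.15 on the normal diet (SD, n = 4 each). H2 lay among the normal-diet libraries, above N1 and N3, and the other high-fat libraries were below them all. No test was made on this mean over chosen genes. The widest parting of a fusion from a fission gene was that of Mfn1 and Mff, chosen after seeing the values. Mfn1 minus Mff lay between -2.54 and -1.91 on the high-fat diet, against -1.80 to -1.49 on the normal diet.

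**Figure D2:**
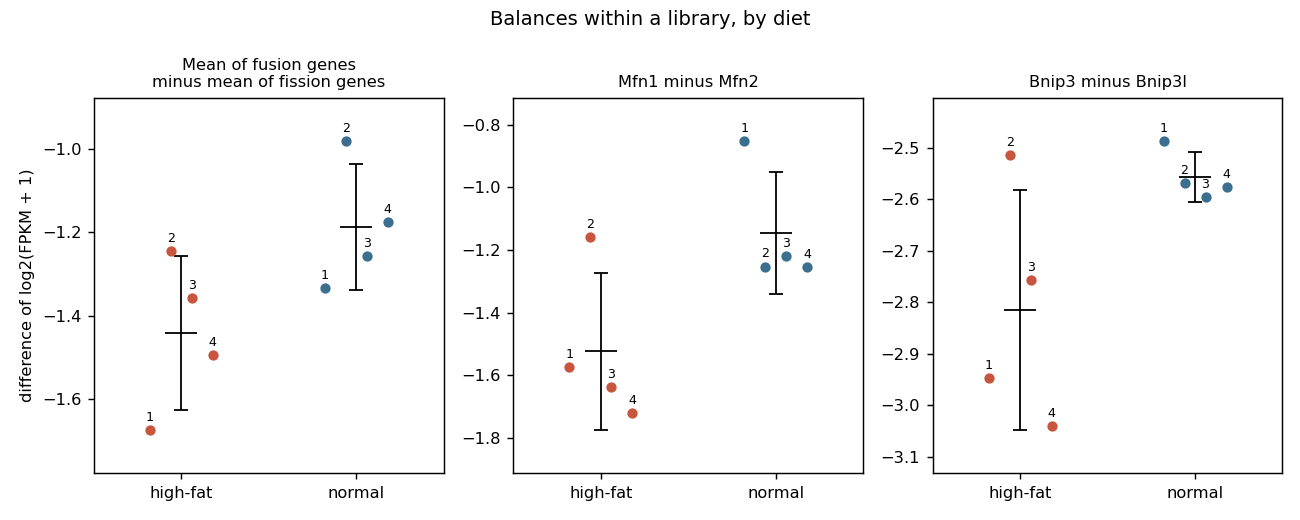
Differences of log2(FPKM + 1) within each library, as dots numbered by library (high-fat diet in red, normal diet in blue), with the mean and SD of 4 libraries in black; the axes do not start at 0. In each panel H1, H3 and H4 lie low, and H2 lies at the level of the normal-diet libraries. The values are as deposited, and for Bnip3 minus Bnip3l the place of H2 changes once the recycled factor is divided out.

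Of the mitophagy genes Pink1 had the largest difference, and the outer-membrane receptors differed little. Pink1 (ENSMUSG00000028756, chromosome 4, 138313409 to 138326307), the kinase that marks damaged mitochondria for Parkin, had 23.6, 31.3, 16.9 and 37.1 FPKM in H1 to H4, against 47.7, 43.0, 52.3 and 30.4 FPKM in N1 to N4. H1 and H3 were below every normal-diet library, while H2 and H4 were above N4. The means of 27.2 ± 8.83 FPKM on the high-fat diet and 43.3 ± 9.43 FPKM on the normal diet (SD, n = 4 each) gave a log2 fold change of -0.68, with a standard error of 0.23 and a 95% interval of -1.18 to -0.19 (limma adjusted p = 0.132). Its spread within a diet was the widest of the 10 on the high-fat diet, with a coefficient of variation of 32.4%, on 540 to 1372 reads per library. In limma-voom on the recovered reads the difference of -0.67 passed (adjusted p = 0.0432), where 6.96% of 13719 genes passed. Under the other 19 settings it did not pass.

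Bnip3 (ENSMUSG00000078566, chromosome 7, 138890836 to 138909519), a hypoxia-induced receptor of the outer membrane, had 11.8, 10.9, 12.1 and 10.2 FPKM in H1 to H4, against 11.6, 13.2, 12.8 and 11.7 FPKM in N1 to N4. The diets overlapped, with H2 and H4 below every normal-diet library as deposited. The recycled factor was 0.863 in H4 and 1.08 in N1 for this gene. With it divided out, H4 lies above N1, and only H2 stays below every normal-diet library. The log2 fold change was -0.12 with a 95% interval of -0.41 to 0.18 (limma adjusted p = 0.722), on 150 to 284 reads per library, the fewest of the 10 genes.

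Bnip3l (ENSMUSG00000022051, chromosome 14, 66985239 to 67008877), its paralog and the receptor that clears mitochondria from maturing red cells, had 97.8, 67.2, 87.5 and 91.4 FPKM in H1 to H4, against 69.5, 83.0, 82.3 and 74.6 FPKM in N1 to N4. H1, H3 and H4 were above every normal-diet library and H2 was below all of them. The log2 fold change was 0.14 (95% interval -0.18 to 0.46, limma adjusted p = 0.684), with 0.25 without H2 (adjusted p = 0.350) and 0.08 without H1. A processed pseudogene, Bnip3l-ps on chromosome 12, was listed at 3.12 to 4.70 FPKM, so that the counting may have split some reads between them.

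Bnip3 minus Bnip3l on the log2(FPKM + 1) scale was -2.95, -2.51, -2.76 and -3.04 in H1 to H4, against -2.49, -2.57, -2.60 and -2.58 in N1 to N4. As deposited, the normal-diet libraries differed little among themselves, H1, H3 and H4 were below them all, and H2 stood within them. The recycled factor is not the same for these genes, so the differences include it. With it divided out, the normal-diet libraries lie further apart and H2 falls just below them all. The shift of -0.26 did not pass the exact permutation test (two-sided p = 0.114, the same after adjustment over the 2 pairs). That test was run on the deposited values only.

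Fundc1 (ENSMUSG00000025040, chromosome X, 17556564 to 17572325), a receptor whose binding to LC3 is set by phosphorylation, had 18.04, 10.9, 13.1 and 17.6 FPKM in H1 to H4, against 13.2, 20.7, 14.2 and 12.7 FPKM in N1 to N4. Each diet held both low and high libraries, with coefficients of variation of 23.4% on the high-fat diet and 24.4% on the normal diet. The difference was -0.03 on the log2 scale (95% interval -0.44 to 0.39, limma adjusted p = 0.964), and its sign changed with several settings.

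**Figure D3:**
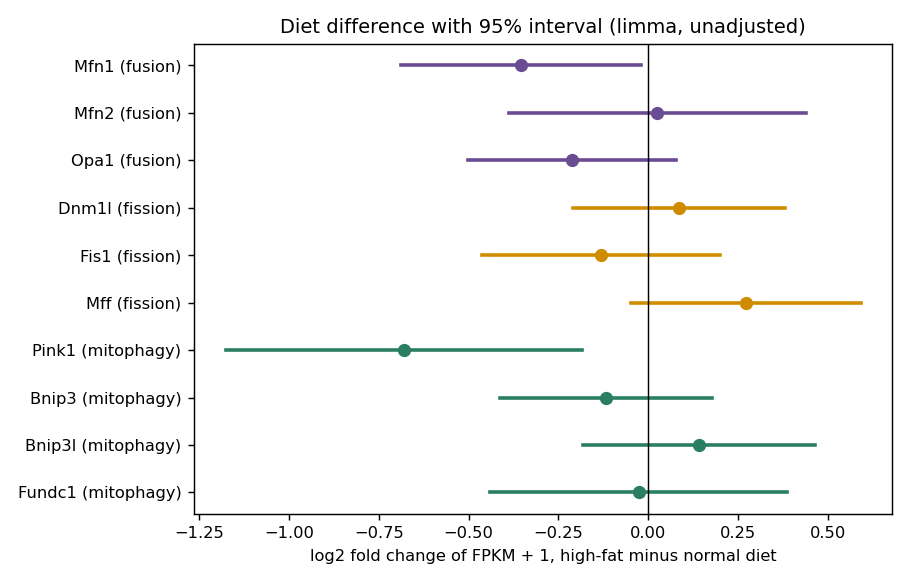
Log2 fold change of FPKM + 1, high-fat minus normal diet, for the 10 genes coloured by role, with the 95% interval of the limma fit, not adjusted for the number of genes. The intervals of Pink1 (-1.18 to -0.19) and Mfn1 (-0.69 to -0.02) lie below 0 and the other 8 include 0.

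Across libraries the genes did not share an extreme. The lowest of the 8 values was in H2 for Fis1, Bnip3l and Fundc1, in N1 for Mfn2, Dnm1l and Mff, and in H1 for Mfn1 and Opa1. The highest was in N2 for Mfn1, Mfn2, Bnip3 and Fundc1. These are extremes of the deposited values. With the recycled factor divided out, H2 is the lowest also for Opa1, Dnm1l and Bnip3. The lowest of Mff is then N2, and N2 is no longer the highest for Fundc1. H2, which was low for Mff, Fis1 and Bnip3l relative to the other high-fat libraries, was also the high-fat library with the fewest reads, the lowest median over the tested genes and the lowest sums of ILC2, T cell, NK and ILC1, macrophage, mast cell, endothelial and dissociation response markers. The part of these in the values was not tested.

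Libraries of this kind do not mark the strand, and 4 of the 10 genes share exon bases with another annotated gene. Genes on the opposite strand cover 504 bases of Bnip3 exons (Gm45507), 243 of Dnm1l (Gm49521) and 195 of Mff (C430014B12Rik), and reads of those bases cannot be told apart. On the strand of Pink1 the small RNA genes Gm27646 and Mir7019 lie in 110 and 69 bases of its exons.

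Related genes were taken from 9 lists, which hold partners of these 10 and wider context such as HIF-1 targets and genes of mitochondrial mass. Of their 115 tested genes 3 passed, which is 2.61% beside 2.86% of all tested genes. Of 17 tested genes of cristae structure and OPA1 processing none passed, with a median of -0.15. Its most expressed members were Minos1, a subunit of the MICOS complex at cristae junctions, at 190 ± 36.7 FPKM on the high-fat diet and 172 ± 16.9 FPKM on the normal diet, and Romo1, an inner-membrane protein, at 99.3 ± 21.7 FPKM on the high-fat diet and 123 ± 15.5 FPKM on the normal diet (SD, n = 4 each). Among the proteases that cut OPA1 or control that cut, and chosen after seeing their values, Oma1 stood at 0.52 (limma adjusted p = 0.120) and Afg3l2 at -0.55 (adjusted p = 0.0964) on the log2 scale. The other proteases of the list, Yme1l1, Spg7 and Parl, stood at 0.02, -0.27 and -0.24.

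Of 15 fission adaptors and regulators none passed, with a median of 0.07. Bcap31, an endoplasmic reticulum protein that binds FIS1, was at 272 ± 43.5 FPKM on the high-fat diet and 383 ± 65.5 FPKM on the normal diet (SD, n = 4 each, log2 fold change -0.49, limma adjusted p = 0.127). Dnm2, another dynamin, differed by -0.19 on the log2 scale.

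In the PINK1 and Parkin list 1 of 17 genes passed. This was Nbr1, an autophagy receptor for ubiquitin-tagged cargo, which rose. It had 13.2, 10.5, 15.6 and 15.6 FPKM in H1 to H4, against 8.25, 6.93, 8.37 and 9.33 FPKM in N1 to N4, with no overlap between the diets. Nbr1 rose by 0.67 on the log2 scale (standard error 0.16, limma adjusted p = 0.0414), and the call ended in 9 settings, among them without H1, H3, H4, N1, N2 or N3 (adjusted p 0.0711 to 0.135), with no filter on low values (0.116) and without the trend and robust options (0.0691). Sqstm1, which encodes p62, another autophagy receptor for ubiquitin-tagged cargo, was fully apart between the diets in the other direction. It had 558, 664, 704 and 759 FPKM in H1 to H4, against 1068, 1694, 982 and 871 FPKM in N1 to N4, and its log2 difference of -0.74 did not pass (limma adjusted p = 0.0534). Park2, which encodes Parkin, was low, with 0.970 to 2.27 FPKM in H1 to H4, against 0.388 to 1.54 FPKM in N1 to N4. Tomm20, deposited with values below 0, was not tested.

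Of 13 other mitophagy genes 1 passed. Rheb, the small GTPase that activates mTORC1 and has been tied to BNIP3L in mitophagy, had 237, 186, 215 and 227 FPKM in H1 to H4, against 384, 410, 295 and 331 FPKM in N1 to N4. It fell by 0.70 on the log2 scale (standard error 0.15, limma adjusted p = 0.0205), and the call ended in 6 settings, among them without H3, H4, N1 or N2 (adjusted p 0.0592 to 0.0715) and with no filter on low values (0.0659). None of the 5 LC3 and GABARAP genes passed, with Map1lc3b at 211 ± 35.6 FPKM on the high-fat diet and 254 ± 30.2 FPKM on the normal diet (SD, n = 4 each) and Gabarap at -0.05 on the log2 scale. Of 8 transport genes, with the motor Kif5b at -0.13 and the outer-membrane GTPase Rhot1 at 0.20, none passed.

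Bnip3 and Bnip3l are textbook targets of HIF-1, and of 17 tested genes of HIF-1 and its other targets 1 fell. This was Vegfa, the vascular growth factor, with 14.6, 18.3, 11.98 and 10.99 FPKM in H1 to H4, against 38.3, 26.2, 42.1 and 26.1 FPKM in N1 to N4 (log2 fold change -1.18, standard error 0.20, limma adjusted p = 0.00625). The median of that list was -0.15, and Bnip3 and Bnip3l stood at -0.12 and 0.14. Of 14 genes of mitochondrial mass none passed, with a median of -0.01. The import receptor subunit Tomm22 was at 0.16 and the channel Vdac2 at 0.06 on the log2 scale. None of 10 tested LKB1 and AMPK genes passed, and among them the most expressed, Cab39l and Prkab1, differed by 0.01 and -0.21. In that list 1 of 10 tested genes, Stk11, which encodes LKB1, did not overlap between the diets, beside 11.1% of all tested genes. It had 14.3, 9.97, 12.2 and 12.6 FPKM in H1 to H4, against 18.5, 16.5, 19.2 and 14.4 FPKM in N1 to N4. Its log2 difference of -0.46 did not pass (limma adjusted p = 0.131).

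**Figure D4:**
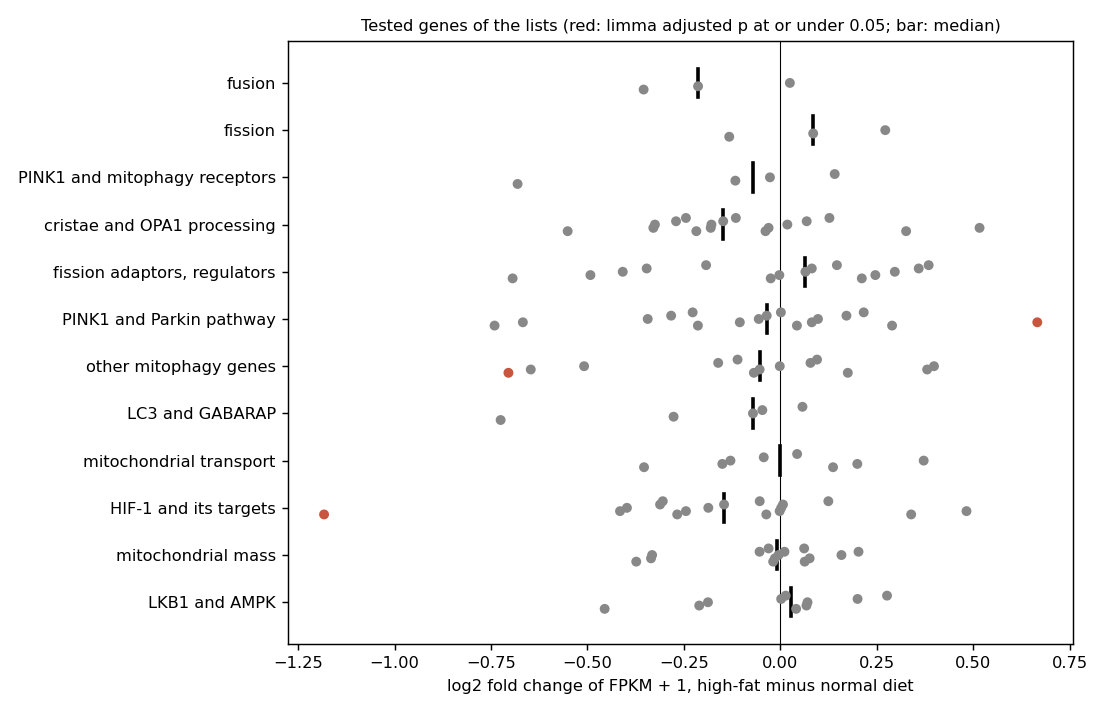
Log2 fold change of FPKM + 1, high-fat minus normal diet, of each tested gene in 12 lists, with red for a limma adjusted p at or under 0.05 and a black bar for the median of the list. Of the called genes Nbr1 lies at 0.67, Rheb at -0.70 and Vegfa at -1.18, and the medians lie between -0.21 and 0.09.

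The tested genes whose profile over the 8 libraries was nearest to that of Pink1, the gene with the lowest adjusted p of the 10, were Map1lc3a, Herpud2 and Dnaja4. The root mean square difference of their centred log2(FPKM + 1) values from those of Pink1 was 0.14, 0.15 and 0.16. Map1lc3a, an LC3 protein of the autophagosome membrane, had 14.6, 19.9, 10.99 and 17.4 FPKM in H1 to H4, against 29.6, 24.4, 34.0 and 18.8 FPKM in N1 to N4. As with Pink1, H3 was the lowest and N3 the highest library. Its log2 fold change was -0.72 (limma adjusted p = 0.0712). Likeness over 8 libraries among 11483 genes was used to name these genes only, and it was not tested.

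**Figure D5:**
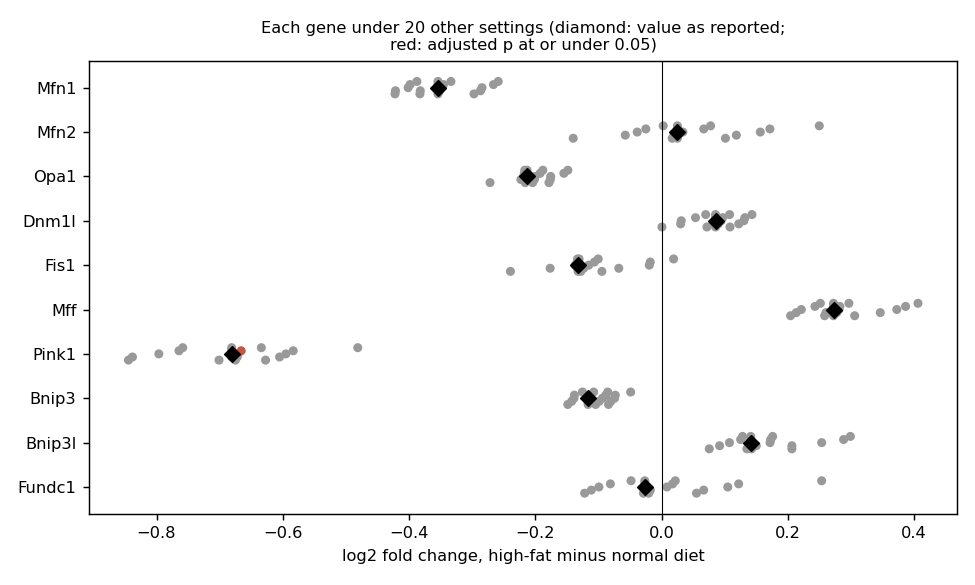
Log2 fold change, high-fat minus normal diet, of the 10 genes as reported (black diamonds) and under 20 other settings (grey dots, red where the adjusted p was at or under 0.05). Mfn1, Opa1, Pink1 and Bnip3 stay below 0 and Dnm1l, Mff and Bnip3l above 0 in every setting shown, while Mfn2, Fis1 and Fundc1 lie on both sides.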

How the data were processed

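RNA-seq of sorted ILC2s gave 8 libraries. The labels' protocols name Trizol for the RNA, a SMART-Seq HT kit for the cDNA and a TruePrep kit for the libraries. HISAT2, Cufflinks and mm10 appear in the submitters' processing notes, while annotation and filters are not stated there. The deposited values, entered as a score because 14605 of 39527 genes hold values below 0, are FPKM per the file headers. None of the 10 genes described is among those.

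In the deposited table the value of 1 read varies by a factor of 0.863 to 1.18 that repeats every 10 genes in identifier order. It shifts the log2 differences of the 10 genes by -0.04 to 0.08, was kept in the main test and was divided out in an alternative. Values of single libraries move more, by the factor itself. The library orders, overlaps, coefficients of variation, differences within libraries and check for outlying libraries were made on the deposited values. Some of them change with the factor divided out, as described for Opa1 and Bnip3. Whole reads were recovered for 24107 genes by finding the smallest length of at least 20 bases at which all 8 values were whole (relative tolerance 1e-06). Where all counts of a gene have a common divisor, this gives too few reads, and where a length is not whole, too many.

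The test used limma 3.58.1 (R 4.3.3) with the trend and robust options and a model of diet alone. In simulated data on 11483 genes it found 67% of the 2-fold changes and 97% of the 4-fold changes, and 4.09% of its calls were false. The simulated noise was independent between genes, without effects shared by a whole library, so these shares need not hold for the real data. All 10 differences described, the largest being -0.68 on the log2 scale for Pink1, are smaller than 2-fold, a size that was not simulated. The members and lists were chosen with earlier results of these data known. Named genes are the 10 members, up to 4 called genes of each list or else its 2 most expressed, and the 3 nearest in profile to the member with the lowest adjusted p. Predicted genes were left out of the last. Il5, Il7r, Areg, Thy1, Cd3e, Fabp4, Esam, Cdh5, Park2, Sqstm1, Stk11, Tomm20, Oma1, Afg3l2, Yme1l1, Spg7 and Parl fall outside this rule. They were named after their values were seen. Alternatives changed the normalization, pseudocount, filter, test options, library weights and replicate block, left out libraries, or used the recovered reads (limma-voom). Symbols of 16 tested genes had become dates and matched no list. Coordinates are from GENCODE M21 (mm10) and are 1-based.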

Additional observations from a re-analysis of the deposited data

Results flagged for a closer look

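Each of the 10 genes was checked for a library far from the others of its diet, in 20 groups of 4 libraries, where chance alone marks about 1 in 20. In 1 group a library stood apart, that of Opa1 on the high-fat diet, where H1 was at 17.3 FPKM and H2 to H4 were at 17.9 to 17.99 FPKM. The distance is small in FPKM because these deposited values were so close together. With the recycled factor divided out, H1 lies between H3 and H4 and is not the lowest. The check was made on the deposited values only.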

How the results depend on the processing

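Under 20 other settings the 10 genes gave 200 values, of which 186 kept direction and side of the threshold. Pink1 passed on recovered reads with limma-voom (-0.67). Fundc1 turned positive with quantile normalization (0.0084), library weights (0.055), without both replicates 2 (0.25), with the factor divided out (0.017) and on recovered reads (0.067), and ran from -0.12 to 0.12 when 1 library was left out. Mfn2 turned to -0.025 with the factor divided out and ran from -0.14 to 0.16 without 1 library. Fis1 was at 0.019 under quantile normalization. The causes were not tested.

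The number of called genes, 328, was 130 with no filter, 649 with library weights, 571 with the factor divided out, 955 on recovered reads, and 129 to 535 without 1 library (535 without H2, 129 without H4). The labels do not say whether replicate numbers pair the libraries. Deviations from the diet mean had correlations of -0.07, -0.26, -0.07 and 0.08 between libraries of the same number. Between libraries of unlike number they were -0.20 to 0.22, so that no pairing was seen, but values this few cannot exclude it. With the replicate number as a block the count was 191, and the calls of Nbr1 (adjusted p = 0.0609) and Rheb (0.0644) ended, which left their lists with 0 calls. Counts in the lists were 0 to 3 in each setting and without 1 library. The PINK1 and Parkin list had 2 with equal medians, an FPKM minimum of 5, library weights, the factor divided out or recovered reads, and 0 with no filter or without trend and robust options. The other mitophagy list had 3 with quantile normalization or weights, 2 without both replicates 2, with the factor divided out or on recovered reads, and 0 with no filter. On recovered reads the fission adaptors had 2, HIF-1 targets 2, and PINK1 and the receptors and LKB1 and AMPK 1 each. Fission adaptors had 1 with the FPKM minimum of 5 or the factor divided out. LC3 and GABARAP had 1 with the FPKM minimum of 5, weights or without both replicates 2.

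Depth limits Bnip3 most, with 150 to 284 reads.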
